A study of Mus musculus with 8 samples.

Results

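The aminoacyl-tRNA synthetase genes were examined for how much of each gene lay under peaks of H3K36me3, the trimethylated lysine 36 of histone H3, in bone marrow stromal cells with and without Cre recombinase acting on floxed Setd2. They were taken by symbol from the 21883 protein-coding genes of the RefSeq table of GRCm38.p6 on chromosomes 1 to 19, X and Y, which gave 38 genes. Of these, 21 were counted as cytosolic and 17, whose symbols end in 2, as mitochondrial. Tarsl2, whose product is a second threonyl-tRNA synthetase of the cytosol, was counted as cytosolic in spite of its last character. Gars and Kars, also counted as cytosolic, each encode the enzyme of both compartments. The KO libraries came from stromal cells of Setd2 fl/fl C57BL/6J mice at passage 2 that had received a lentivirus expressing Cre. The WT libraries came from the same floxed cells given a lentivirus expressing GFP, so that both groups carried the floxed alleles, a lentivirus and 4 days of puromycin at 2 µg/ml. The KO culture is a population infected in a dish and not a clone, and the labels give no share of cells in which Setd2 was deleted. Each genotype had 2 H3K36me3 libraries, each called against an Input library and against an IgG library (antibody of no specific target) of the same genotype.

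Aminoacyl-tRNA synthetases join each amino acid to its transfer RNA, the step that fixes the genetic code in translation. The cytosolic enzymes serve the ribosomes of the cytosol, and several of them sit together in a multi-synthetase complex held by scaffold proteins, while a separate set of nuclear genes encodes enzymes that are imported into mitochondria. These genes are active in almost every cell. H3K36me3 is placed by SETD2, which travels with elongating RNA polymerase II, and is known to lie over the bodies of transcribed genes and to be scarce at their start sites.

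The lists called against Input held 122589 and 159459 peaks in the KO libraries, against 242745 and 246258 peaks in the WT libraries. Mean coverage over all protein-coding genes, the percent of the annotated span under peaks, was 2.92% and 3.72% in KO and 26.3% and 25.5% in WT. Setd2 itself was covered over 0.690% and 1.70% of its span in KO, against 66.4% and 60.5% in WT, which measures the mark over the gene and not the deletion. Of 12 stromal markers, 10 were tested and all 10 fell in the limma test described below, as did 92.6% of all genes tested. The stromal list averaged 2.06% in KO and 44.5% in WT, while Thy1 had no peak in either WT library and Lepr had 3.33% and 0.812%. Of 8 haematopoietic markers, 6 were tested and 5 fell, and the list averaged 4.58% in KO and 33.9% in WT. The haematopoietic markers with the highest WT means on Input were Lyz2, with 74.9% and 87.6%, and Cd68, with 37.0% and 71.3%. In the lists called against IgG, Lyz2 had no peak in either WT library, and Cd68 had the same WT values as on Input. Csf1r, a receptor of macrophages, had 45.1% and 43.5% in WT on Input. The other haematopoietic markers had lower WT means. Itgam had 23.9% and 21.7%, Spi1 19.3% and 14.8%, Adgre1 18.6% and 17.3%, and Cd79b 0% and 38.2%. Ptprc, which encodes CD45, had the lowest WT mean of the haematopoietic list on Input, with 15.0% and 14.2%. The 5 endothelial markers averaged 5.12% in KO and 6.96% in WT. These list means are on Input. Against IgG the stromal list averaged 0.561% in KO and 19.99% in WT, and Col1a1 and Vim had no peak in any library. The haematopoietic list averaged 4.23% in KO and 19.5% in WT there, and the endothelial list 3.21% and 5.86%. The higher WT mean of the stromal list over the haematopoietic list on Input was thus nearly absent against IgG. The part of other cell types in the results below was not tested.

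The synthetase genes were broadly covered in WT cells and nearly bare in KO cells. Mean coverage over the 38 genes was 3.62% and 3.74% in the KO libraries, against 63.8% and 60.7% in the WT libraries. The groups were far apart, with means of 3.68% ± 0.0800 in KO and 62.3% ± 2.20 in WT (SD, n = 2 libraries each). A limma test of KO against WT was run over every protein-coding gene whose 4 libraries averaged 10% or more, as 49.4% of genes did, and 37 of the 38 members were among them. All 37 fell at a Benjamini-Hochberg adjusted p under 0.05 and none rose, where 92.6% of the 10806 genes tested fell and 0.555% rose. A fall was therefore the rule among all tested genes, and the count of synthetase genes stands close to that background. The median change was -65.9 points over the 37 synthetase genes and -47.7 points over all genes tested. In all 37, both KO libraries lay below both WT libraries, as they did in 94.8% of the genes tested. The peak lists carry no read counts, so depth is unknown and coverage says nothing of how much mark remained below the calling threshold. A mark lost from every cell and a mark lost from most of the cells cannot be told apart in bulk chromatin. Whether the paired KO libraries, or the paired WT libraries, derive from different cultures or animals is not in the labels, and the p-values measure only a spread between libraries that may be technical.

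**Figure D1:**
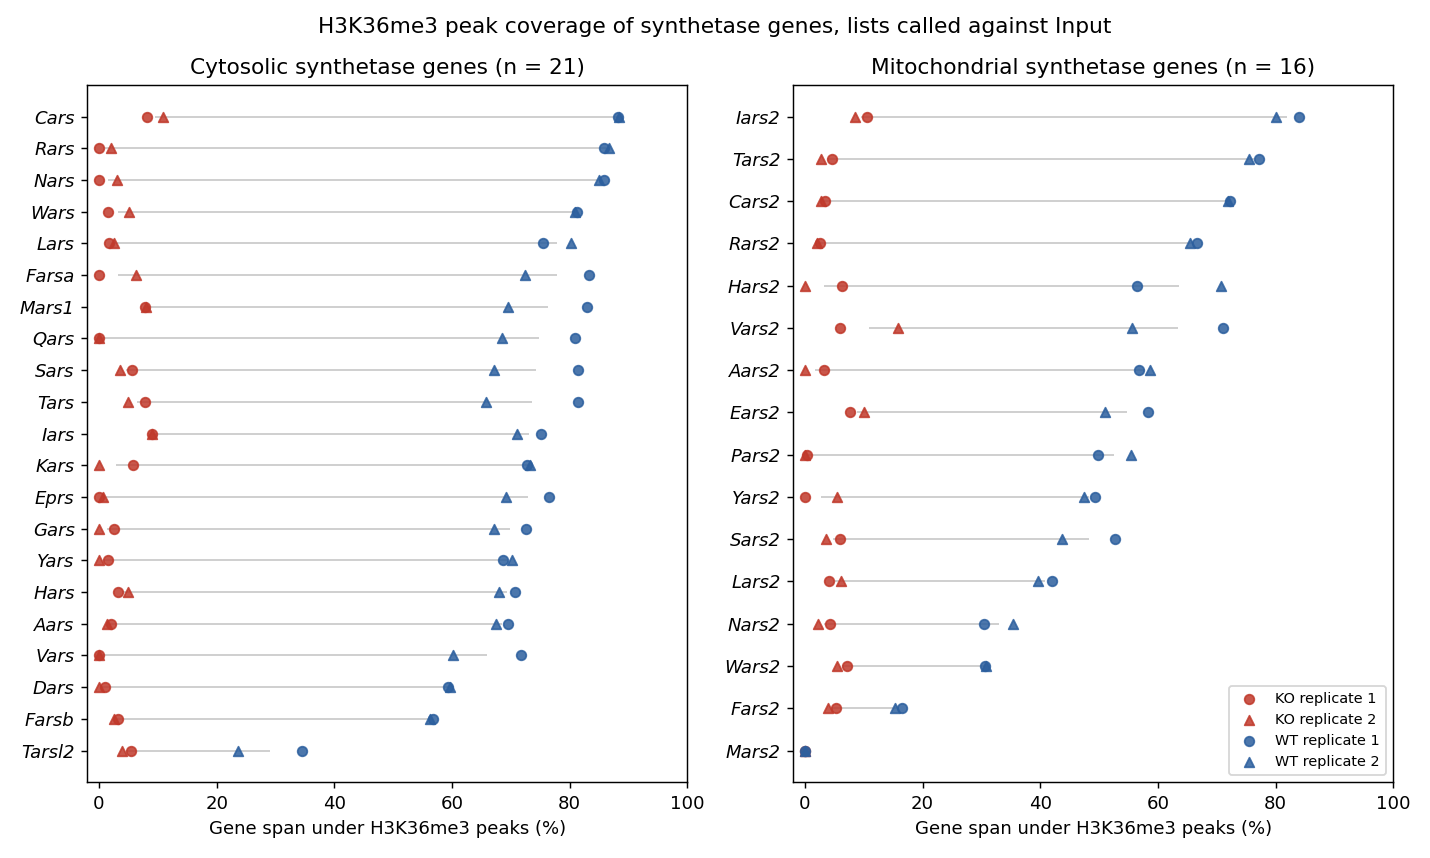
Percent of the span of each of 37 genes under H3K36me3 peaks in the lists called against Input, with KO points in red, WT points in blue, circles for replicate 1, triangles for replicate 2 and a grey line between the means. Among the cytosolic genes WT means reached 88.3%, among the mitochondrial genes 82.0%, and no KO point passed 15.9%; with each library scaled to the same mean coverage, 5 genes turned higher in KO without passing the test.

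When each library was scaled to the same mean coverage over all genes, 17 of the 37 genes still fell by limma and 0 rose (19 and 0 at an unadjusted p under 0.05), beside 45.2% of all genes tested that fell and 2.42% that rose. The 17 were 13 cytosolic genes (Aars, Dars, Eprs, Farsb, Gars, Hars, Lars, Nars, Qars, Rars, Vars, Wars and Yars) and 4 mitochondrial genes (Cars2, Pars2, Rars2 and Tars2). That scaling sets the library means over all genes equal and so multiplies the low KO values up. It did not take out all of the loss shared by the tested genes. The median change moved to -16.7 points over all genes tested and to -24.3 points over the synthetase genes. Fars2, Vars2, Wars2, Tarsl2 and Ears2 then had higher values in KO than in WT, by 4.93 to 11.8 points, with limma adjusted p-values of 0.113 to 0.606.

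In WT cells, 29 of the 38 genes had peaks over 50% or more of the span in each library, against 22.3% of all protein-coding genes. By compartment these were 20 of 21 cytosolic genes and 9 of 17 mitochondrial genes. At a level of 25% there were 35, against 40.3% of all genes, and at 75% there were 7, of which 5 were cytosolic, against 4.24% of all genes. In KO cells, 35 of the 38 genes were under 10% in both libraries, and the exceptions were Cars, Iars2 and Vars2. Among all genes covered over at least 50% in both WT libraries, 89.1% were under 10% in both KO libraries. Qars, which loads glutamine, and Vars, which loads valine, kept no peak in either KO library.

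The cytosolic genes averaged 3.16% and 3.29% in the KO libraries, against 74.0% and 69.1% in the WT libraries. The largest falls of all members were in this set. Rars, the arginyl-tRNA synthetase gene on chr11:35808381-35834528, was covered over 0% and 2.07% of its span in KO, against 85.8% and 86.7% in WT. Coverage of Rars fell by 85.2 points, with a limma adjusted p of 0.000211, and the spread between WT libraries was under 1 point. Nars, for asparagine, on chr18:64499655-64516515, had 0% and 3.14% in KO and 85.8% and 84.99% in WT. It fell by 83.8 points, with the same limma adjusted p of 0.000211. Cars, the cysteinyl-tRNA synthetase gene on chr7:143557230-143600090, had the highest WT coverage of all 38 genes. It was covered over 8.12% and 10.9% in KO, against 88.1% and 88.4% in WT, a fall of 78.8 points. Its KO libraries were high among the members, but far below WT. Wars, which loads tryptophan, lies on chr12:108860030-108894175 and had 1.497% and 5.13% in KO, against 81.3% and 81.0% in WT. Lars, the leucine enzyme gene on chr18:42202298-42262237, whose product also senses leucine for the growth regulator mTORC1, had 1.78% and 2.51% in KO, against 75.4% and 80.2% in WT. Falls were 77.8 points in Wars and 75.6 points in Lars, each with a limma adjusted p of 0.000211.

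The lowest cytosolic gene was Tarsl2 on chr7:65644898-65692093, with 5.41% and 3.92% in KO, against 34.5% and 23.6% in WT. It was the cytosolic gene outside the count of 20 above, and its WT libraries differed by more than 10 points. Its fall of 24.4 points had a limma adjusted p of 0.00888. That call was lost when either KO library was left out, with values of -25.1 points without the first and -23.6 points without the second. The other 20 cytosolic genes had WT means between 56.5% (Farsb, the beta subunit of phenylalanyl-tRNA synthetase) and 88.3%. Farsa, which encodes the alpha subunit of the same enzyme, averaged 3.19% ± 4.51 in KO and 77.8% ± 7.72 in WT (SD, n = 2 each). Single WT libraries had 83.2% and 72.3% in Farsa and 56.8% and 56.2% in Farsb, so the genes of the partner subunits did not overlap.

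The 8 cytosolic genes whose enzymes sit in the multi-synthetase complex (Eprs, Iars, Lars, Mars1, Qars, Rars, Kars and Dars) averaged 2.97% ± 0.270 in KO and 74.2% ± 2.71 in WT. The 13 outside it averaged 3.38% ± 0.317 in KO and 69.9% ± 3.99 in WT (SD over 2 libraries). These ranges overlapped within WT, where the complex genes had 76.1% and 72.3% and the others 72.8% and 67.1%. Eprs, whose single protein charges both glutamate and proline, had 0% and 0.719% in KO, against 76.5% and 69.2% in WT. The scaffold genes of the complex fell too, as did 92.6% of all genes tested. Aimp1 had 0% and 2.73% in KO, against 62.5% and 57.3% in WT, with a limma adjusted p of 0.000277. Aimp2 had 0% and 8.002% in KO, against 42.4% and 52.5% in WT (limma adjusted p 0.00239). Eef1e1 had no KO peak in either library, against 74.9% and 78.8% in WT (limma adjusted p 0.000211). In each scaffold gene the KO libraries lay below both WT libraries, as they did in 94.8% of the genes tested. In the lists called against IgG, WT coverage was 32.0% and 19.1% in Aimp2 and 58.9% and 53.3% in Aimp1. Eef1e1 had 74.9% and 78.8% there, as on Input.

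The mitochondrial genes averaged 4.20% and 4.29% in the KO libraries, against 51.2% and 50.4% in the WT libraries. Their WT means ran between 0% and 82.0%, a wider range than that of the cytosolic genes. Iars2, the isoleucine enzyme gene on chr1:185286642-185329419, was the highest, with 10.5% and 8.55% in KO, against 84.1% and 80.0% in WT. It fell by 72.5 points, with a limma adjusted p of 0.000211. Of the 5 smallest falls of the tested members, 4 were in this set. Fars2, for phenylalanine, on chr13:36117428-36537595, had 5.21% and 3.97% in KO, against 16.6% and 15.3% in WT. It is the longest member at 420 kb, and fell by 11.4 points with a limma adjusted p of 0.00945. Without the first KO library the change was -12.0 points and without the second -10.7 points, and neither passed the threshold. Without either WT library, Fars2 fell under the 10% filter. Wars2, for tryptophan, on chr3:99140107-99221230, had 7.20% and 5.50% in KO, against 30.6% and 30.7% in WT, and fell by 24.3 points (limma adjusted p 0.000763). Nars2, for asparagine, on chr7:96950839-97064758, had 4.30% and 2.20% in KO and 30.5% and 35.4% in WT, a fall of 29.7 points (limma adjusted p 0.00114). The WT libraries of all these genes stayed above both of their KO libraries. Lars2, for leucine, on chr9:123366927-123462675, had 4.14% and 6.19% in KO, against 42.0% and 39.6% in WT, and fell by 35.6 points (limma adjusted p 0.000402).

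Mars2, the mitochondrial methionyl-tRNA synthetase gene on chr1:55237177-55240058, was the member outside the test. It had no peak in any of the 4 libraries, against Input or against IgG. No peak in the 4 Input lists was found in 16.4% of protein-coding genes. Mars2 is the shortest member at 2.88 kb. Its neighbours in the gene table were sparsely covered as well, with 4.38% and 7.86% in KO and 14.01% and 23.6% in WT for Rftn2, and 2.32% and 4.08% in KO and 2.25% and 0.700% in WT for Boll.

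For 14 amino acids a cytosolic and a mitochondrial gene face each other. In WT the cytosolic mean was higher in 12 of the 14 pairs. In 9 pairs both WT libraries of the cytosolic gene lay above both of its partner, in 1 pair the mitochondrial gene lay above, and in 4 the values overlapped. The widest gap was for methionine, where Mars1 had 83.0% and 69.5% in WT, against 0% for Mars2. For asparagine the means were 85.4% in Nars and 33.0% in Nars2, and for tryptophan 81.1% in Wars and 30.7% in Wars2. All 3 of these mitochondrial genes were the lower by more than 50 points. Among the closest pairs, Vars had 71.7% and 60.1%, against 71.1% and 55.5% in Vars2, and Tars had 81.4% and 65.8%, against 77.1% and 75.4% in Tars2. These pairs overlapped between libraries, and none of the 14 differences was tested. Isoleucine was the pair in which the mitochondrial gene was higher, with 75.1% and 71.1% in Iars and 84.1% and 80.0% in Iars2. In KO the genes named here lay between 0% and 15.9%, the highest being Vars2 with 5.92% and 15.9%. KO values of the close pairs were 0% and 0% in Vars, 7.86% and 4.92% in Tars, and 4.65% and 2.74% in Tars2. Mars1 had 7.82% and 7.998% in KO. The fall of Vars2, 52.5 points with a limma adjusted p of 0.00356, was not called when either WT library was left out, at -44.7 points without the first and -60.3 points without the second.

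**Figure D2:**
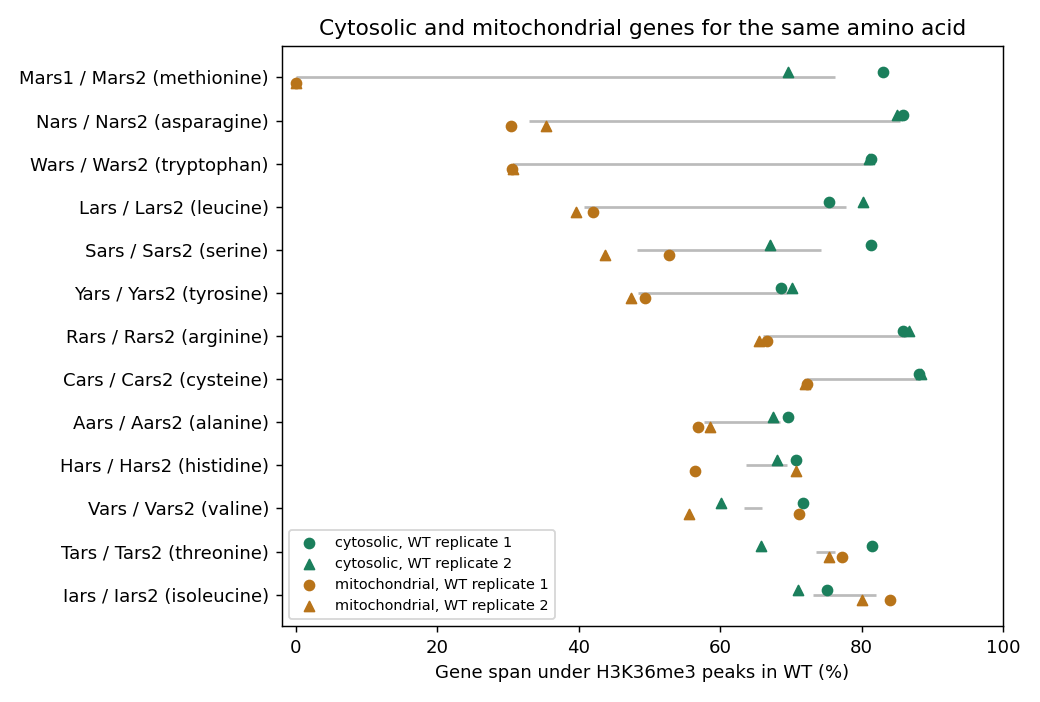
WT coverage of the cytosolic (green) and mitochondrial (orange) gene of each of 13 amino acids, in percent of span, with circles and triangles for WT replicates 1 and 2 and a line between the means. The cytosolic mean is the higher in 11 of the 13 pairs drawn, with the widest gap for methionine at 76.3 points and the reverse order for threonine and isoleucine.

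Hars and Hars2, for histidine, lie side by side on chr18:36766528-36783205 and chr18:36783202-36792562, and their spans share 4 bp. Hars had 3.17% and 4.92% in KO, against 70.7% and 68.0% in WT. Hars2 had 6.38% and 0% in KO, against 56.4% and 70.8% in WT. The second WT library was the higher in Hars2 and the lower in Hars, so the order within this pair differed between the libraries. Leaving out the shared bases changed no call among the members.

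The gap between the compartments differed with span length, being narrower than over all members between 10 and 60 kb and wider in shorter and longer genes. These length bands were chosen after the values were seen. Between 20 and 60 kb, 11 cytosolic genes averaged 70.6% ± 1.87 in WT and 5 mitochondrial genes 66.5% ± 1.29. Between 10 and 20 kb, 7 cytosolic genes averaged 74.5% ± 5.51 and 4 mitochondrial genes 61.4% ± 4.34 (SD over 2 libraries). At 60 kb or more, Eprs and Farsb averaged 64.7% and the 4 mitochondrial genes Wars2, Lars2, Nars2 and Fars2 averaged 30.1%. All protein-coding genes of those lengths averaged 34.0%, 34.7% and 21.9%. Under 10 kb, Qars had a mean of 74.7%, against 41.1% for the 4 mitochondrial genes, among them Mars2, and 17.8% for all genes. In these outer bands the compartments were not matched in length. Eprs and Farsb span 66.9 and 70.9 kb, and the mitochondrial genes of 60 kb or more span 81.1 to 420 kb. Qars spans 7.94 kb, and the mitochondrial genes under 10 kb span 2.88 to 9.36 kb. The wider gap there is therefore not a gap at equal length. Over all 38 genes the Spearman correlation of span length with WT coverage was -0.10, and over the 36 of at least 5 kb it was -0.25, with a Pearson correlation of -0.48 on log length. These are descriptions over genes that share their libraries.

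**Figure D3:**
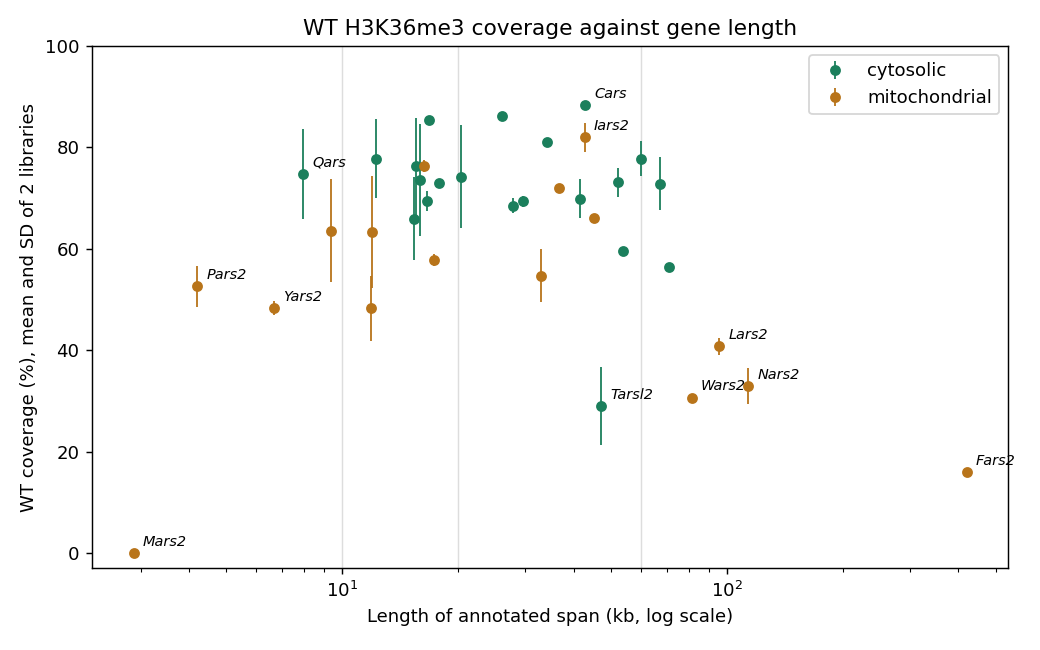
WT coverage (mean and SD of 2 libraries, percent of span) against the length of the annotated span in kb on a log scale, cytosolic genes green and mitochondrial genes orange, with grey lines at the band limits. Fars2 at 420 kb and Nars2 at 114 kb lie low on the right, Mars2 at 2.88 kb lies at 0% on the left, and cytosolic genes other than Tarsl2 stay above 50%.

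Counted from the start site onward, the mark began behind that site and lay over the body. Strand and start site were known for 28 members, 14 in each compartment, from the RefSeq promoter table of GRCm38.p6. No start site was covered in any of the 4 libraries. In the 27 of these genes with WT peaks, the first covered base lay at a median of 2.44 kb and 3.02 kb behind the start site in the WT libraries, within 1.03 to 5.20 kb. In KO, 23 and 20 genes had any peak behind the start, at medians of 10.2 kb and 9.72 kb. The window of 250 bases before to 50 after the start was free of peaks in all 28 genes in every library. Over 17491 genes it was touched by a peak in 1.93% and 2.29% of genes in KO and in 2.68% and 2.65% in WT.

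The annotated spans of genes of at least 5 kb were cut into 10 equal bins. In some genes, among them Aars, Aars2 and Eprs, the span begins before the start site used above. Their first bins can therefore lie before that site. WT coverage of the 14 cytosolic genes was 10.8% ± 1.98 in the first bin, 80.3% ± 1.13 in the fifth and 83.4% ± 1.99 in the last (SD over 2 libraries). The 13 mitochondrial genes had 17.1% ± 1.89 in the first bin, 50.8% ± 0.582 in the fifth and 70.2% ± 1.40 in the last. Both sets were highest in the last bin, and the cytosolic genes had come close to that level by the middle of the span. The cytosolic set lacked Cars, Hars, Lars, Nars, Rars, Vars and Wars, whose strand was not known. The mitochondrial set held Wars2, Lars2, Nars2 and Fars2, the mitochondrial genes of 60 kb or more. All 7610 tested genes with a known strand and this length had 10.5%, 55.4% and 68.9% in WT at the same places. In KO the highest bin, as a mean of 2 libraries, was 5.62% in the cytosolic genes and 9.28% in the mitochondrial genes, against 4.72% in all tested genes, and the highest single KO library was at 7.21% and 11.2% in those sets. The second bin of the cytosolic genes differed most between the WT libraries, with 63.0% in the first and 38.7% in the second.

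**Figure D4:**
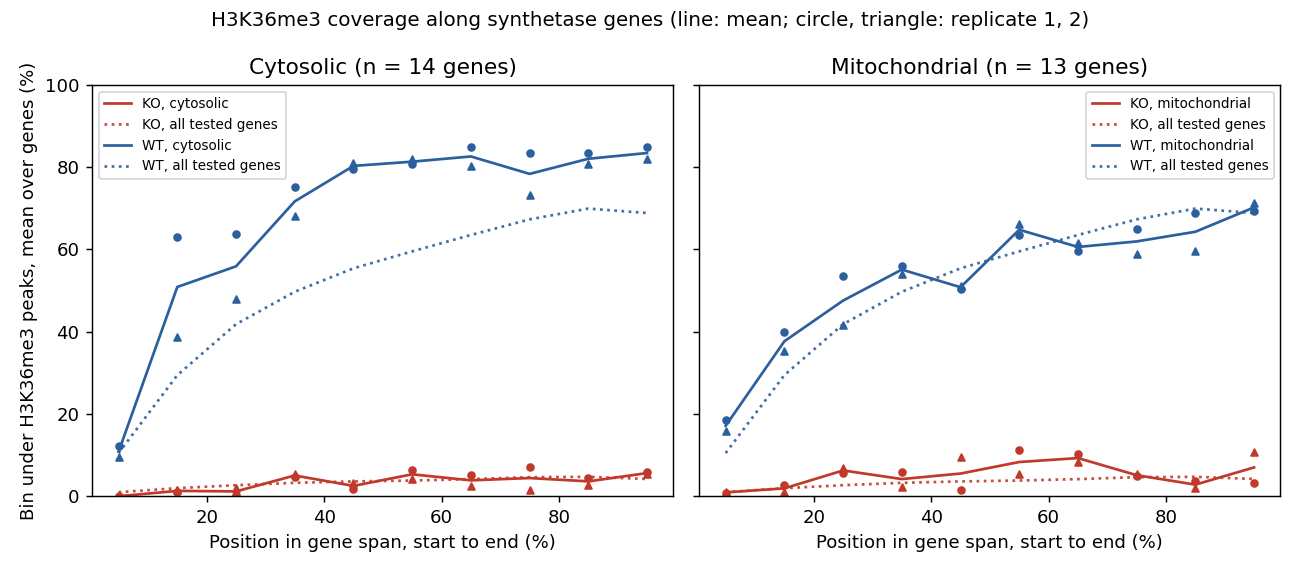
Mean percent of each of 10 bins under peaks from the start (left) to the end (right) of the annotated span, for cytosolic genes (n = 14) and mitochondrial genes (n = 13), KO red and WT blue, with dotted lines for all tested genes and points for single libraries. WT coverage is lowest in the first bin and reaches 83.4% and 70.2% in the last, while the KO means stay under 10% throughout.

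The start regions were searched for a word known from amino acid shortage, when the factor ATF4 binds the amino acid response element and raises transcription of synthetase genes. Its core, TGATGNAA, was searched on both strands of the 300 bases from 250 before to 50 after the start, together with TTGCATCA, which is the reverse complement of one form of that core and so overlaps it. The core was found in 5 of 14 cytosolic genes (Aars, Gars, Iars, Tars and Yars) and in 0 of 14 mitochondrial genes, against 3.68% of the 17491 promoters. TTGCATCA was found in 4 of these 5, on either strand, against 0.903% of all promoters. CGGAAG, the core of ETS factors, was in 6 cytosolic and 8 mitochondrial genes, against 21.5% of all. The core of the factor NRF1 and the word CATTGTGG were in none of the 28, against 1.33% and 1.04% of all. A match is a description of the letters and not a bound site. The 5 promoters with the core are shown because no mitochondrial gene had it, with the matches in capitals on the strand of the gene. They lie on GRCm38.p6 at chr8:111033592-111033891 (plus strand), chr6:55037751-55038050 (plus), chr13:49681880-49682179 (plus), chr15:11399609-11399908 (minus) and chr4:129189653-129189952 (plus), from RefSeq.
Aars: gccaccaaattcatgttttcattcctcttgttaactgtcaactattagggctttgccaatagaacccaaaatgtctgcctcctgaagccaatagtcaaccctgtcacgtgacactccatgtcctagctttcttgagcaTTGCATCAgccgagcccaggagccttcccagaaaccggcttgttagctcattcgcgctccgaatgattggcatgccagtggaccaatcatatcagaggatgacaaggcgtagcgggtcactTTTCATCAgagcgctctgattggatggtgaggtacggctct
Gars: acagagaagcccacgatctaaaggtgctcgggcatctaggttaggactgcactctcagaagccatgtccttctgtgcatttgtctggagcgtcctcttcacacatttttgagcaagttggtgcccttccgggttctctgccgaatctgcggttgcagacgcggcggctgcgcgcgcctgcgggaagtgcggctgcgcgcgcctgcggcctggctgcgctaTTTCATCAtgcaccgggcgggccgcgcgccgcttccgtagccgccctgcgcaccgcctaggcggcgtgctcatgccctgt
Iars: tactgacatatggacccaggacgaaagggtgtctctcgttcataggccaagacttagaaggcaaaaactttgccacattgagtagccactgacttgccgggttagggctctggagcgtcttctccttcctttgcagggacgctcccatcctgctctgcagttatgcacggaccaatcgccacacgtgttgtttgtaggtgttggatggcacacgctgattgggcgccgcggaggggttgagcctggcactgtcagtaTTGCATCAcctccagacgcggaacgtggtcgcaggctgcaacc
Tars: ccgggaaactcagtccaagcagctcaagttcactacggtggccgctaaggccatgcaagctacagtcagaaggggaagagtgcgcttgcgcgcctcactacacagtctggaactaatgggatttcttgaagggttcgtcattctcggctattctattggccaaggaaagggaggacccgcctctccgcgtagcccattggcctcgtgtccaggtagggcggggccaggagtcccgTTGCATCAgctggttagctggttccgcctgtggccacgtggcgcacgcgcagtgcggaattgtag
Yars: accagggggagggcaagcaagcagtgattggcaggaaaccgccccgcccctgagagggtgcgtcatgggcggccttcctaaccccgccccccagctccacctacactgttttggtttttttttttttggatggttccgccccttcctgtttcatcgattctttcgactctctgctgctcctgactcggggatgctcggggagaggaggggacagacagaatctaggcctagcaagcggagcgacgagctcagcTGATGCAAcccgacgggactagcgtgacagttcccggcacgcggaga

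In Aars, the alanine enzyme gene, the matches lay 105 bases before and 9 bases after the start site. In Gars, for glycine, the match lay 23 bases before it, and in Tars, for threonine, 8 bases before it. In Iars, for isoleucine, it lay 7 bases after the start site and in Yars, for tyrosine, 3 bases after it. None of these windows held a peak, and the bodies of the genes were covered in WT and nearly bare in KO. Aars had 2.12% and 1.38% in KO, against 69.6% and 67.4% in WT. Gars had 2.61% and 0% in KO, against 72.6% and 67.2% in WT. Iars had 8.93% in both KO libraries, against 75.1% and 71.1% in WT. The 5 genes did not stand out among the cytosolic genes, whose WT means they lay within. Yars had 1.48% and 0% in KO, against 68.6% and 70.2% in WT.

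Several members share a start region with a gene on the other strand. Kars starts 5 bp away from Terf2ip, a telomere protein gene, which had 0% and 11.5% in KO, against 34.0% and 63.0% in WT. Rars2 starts 15 bp away from Orc3, of the origin recognition complex, with 3.15% and 3.31% in KO, against 79.2% and 64.3% in WT. Ears2, for glutamate, starts 112 bp away from Ubfd1, with 5.24% and 3.75% in KO, against 83.3% and 75.4% in WT. These neighbours too were covered in WT and nearly bare in KO. Sars2, for serine, starts 147 bp away from Mrps12, a mitochondrial ribosomal protein gene with no KO peak and 42.2% and 54.0% in WT. Fars2 starts 286 bp away from Lyrm4, of iron-sulphur cluster assembly, with 3.98% and 6.27% in KO, against 17.2% and 14.1% in WT. Lyrm4 was thus as sparsely covered in WT as Fars2. Yars starts 324 bp away from S100pbp, with 4.56% and 4.25% in KO, against 66.0% and 60.8% in WT.

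The members held 120 and 114 peaks in KO, against 655 and 664 in WT. KO peaks were narrow as well as few. The widest peak in any member was 1321 bp (Wars2) and 1310 bp (Lars2) in the KO libraries, against 9812 bp (Tars) and 10966 bp (Iars) in the WT libraries. A peak of at least 2 kb was found in 33 and 32 members in the WT libraries and in none in KO. The share of all genes with such a peak was not counted. Narrower KO peaks were not particular to the members. Over the whole lists, mean peak width was 585 and 592 bp in KO, against 999.5 and 955.9 bp in WT. The widest peaks of the whole KO lists were 7535 and 6777 bp. The places of the KO peaks differed between libraries. Of the bases covered in either KO library, 5.82% were covered in both, against 60.4% in WT. This share depends on how much is covered. Of the summed span of the members, 4.28% and 3.91% was covered in KO, against 50.1% and 48.3% in WT. The KO and WT shares are therefore not directly comparable. In the cytosolic genes 67.1% and 75.1% of the KO bases lay in regions covered in both WT libraries, regions that made up 57.6% of the span. In the mitochondrial genes it was 34.3% and 43.5%, beside 22.6% of the span.

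Against the IgG control the members had less coverage but fell in the same way. All 35 members tested there fell and none rose, where 91.4% of 9632 genes fell and 0.218% rose. Means were 2.19% ± 0.0972 in KO and 62.1% ± 4.37 in WT for the cytosolic genes, and 2.46% ± 0.000359 in KO and 40.03% ± 0.654 in WT for the mitochondrial genes (SD, n = 2). Mars2, Fars2 and Pars2 were not tested there. Pars2, for proline, had 0.332% and 0% in KO, against 49.7% and 55.4% in WT on Input, and no WT peak on IgG. Nars was lower by more than 20 points on IgG in both WT libraries, with 60.7% and 49.3%. Hars2 had 39.97% and 23.0% in WT on IgG, and Tars 71.3% and 36.3%.

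**Figure D5:**
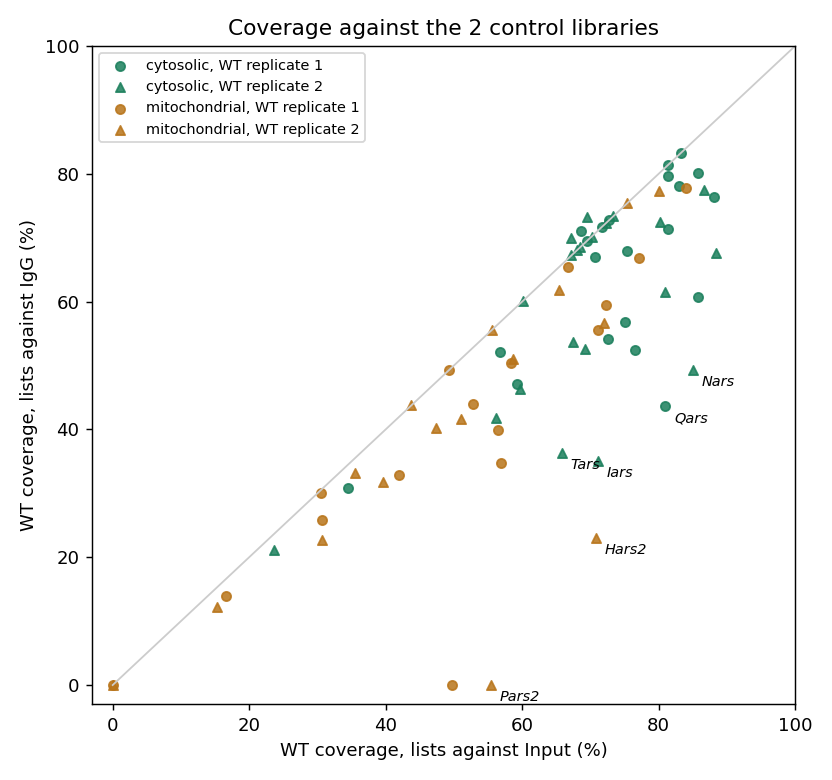
WT coverage of 37 members in the lists called against Input (x axis, percent) and against IgG (y axis, percent), cytosolic genes green and mitochondrial genes orange, with circles and triangles for replicates 1 and 2 and the line of equal values. Most points lie on or below the line, and Pars2 lies at 0% on IgG with 49.7% and 55.4% on Input.

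Other genes around tRNA charging fell about as often as all genes tested, of which 92.6% did. Of 13 genes for amidotransfer, editing and tRNA handling, 12 were tested and 11 fell by limma, with a median change of -52.8 points, against -47.7 points over all genes tested. Prorsd1, an editing factor gene, missed the threshold with 0% and 0% in KO, against 6.62% and 37.3% in WT (limma adjusted p 0.148). Of 10 translation elongation factor genes, 9 were tested and all 9 fell. The untested Eef1a2, an elongation factor gene of muscle and neurons, had 3.36% and 11.7% in KO, against 3.97% and 0% in WT, and these overlapped. Tufm, the mitochondrial factor that brings charged tRNA to the ribosome, had no KO peak, against 63.7% and 61.2% in WT. Eef1a1, its cytosolic counterpart, had 31.3% and 0% in KO, against 71.4% and 75.2% in WT (limma adjusted p 0.0125), and no peak in any IgG list. All 10 genes of the amino acid response fell, with a median change of -63.6 points. Gcn1, which helps the kinase GCN2 sense uncharged tRNA, had 5.92% and 7.85% in KO, against 90.1% and 87.8% in WT. Eif2ak4, which encodes GCN2, had 5.00% and 7.42% in KO, against 79.3% and 73.1% in WT. Atf4 had no KO peak, against 46.2% and 57.2% in WT, and no peak in any IgG list. In Gcn1, Eif2ak4 and Atf4, both KO libraries lay below both WT libraries. After scaling to equal mean coverage, 4 charging factors, 5 elongation factors and 6 response genes still fell, out of 12, 9 and 10 tested, where 45.2% of all genes tested did.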

How the data were processed

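H3K36me3 ChIP-seq peak lists of 4 libraries were used, 2 from KO and 2 from WT cells, each called by the authors on a single library against the Input and against the IgG library of its genotype, per the labels. The submitters' processing notes name Bowtie2 and the build GRCm38. Peak names start with MACS, but which version and settings called the peaks is not given in the sources used here. Each peak has a score deposited by the authors, on an unstated scale, which served only as a description or filter inside its own list. The lists hold no read counts, so depth is unknown, and a deeper library could give more and wider peaks. Both libraries of a genotype share their control library.

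Coverage was the percent of a RefSeq gene span (GRCm38.p6) under merged peaks. The limma test (version 3.58.1, R 4.3.3; lmFit, eBayes with trend and robust) set KO against WT on percent values of protein-coding genes with a mean of at least 10%, adjusted by Benjamini-Hochberg over all tested genes, with a threshold of 0.05. The step was tested on simulated data in which few genes changed and most KO values were not near the floor. That setting differs from these data, where most tested genes fell to low KO coverage. Python 3.11.15, numpy 2.4.6, pandas 2.3.3 and matplotlib 3.10.9 did the rest. Strand, start sites and promoter sequences came from the RefSeq promoter table, which matched 28 of the 38 members, with no entry for Cars, Hars, Hars2, Lars, Nars, Pars2, Rars, Vars and Wars among others. Named with values in every library were the 5 largest and 5 smallest falls, members outside the test, the highest and lowest of each compartment in WT, the 3 widest and 3 closest amino acid pairs, and members that overlap or start within 1 kb of another. Of the members, 1 enters the counts and means but is neither reported by name nor drawn here. Genes beyond these were picked with their values in view. The members and lists were chosen with earlier results of these data known.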

Additional observations from a re-analysis of the deposited data

How the results depend on the processing

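Among the tested members, all kept a fall past the threshold without the low-coverage filter, with a filter of 25% (32 tested), on arcsine values, without the trend and robust options, with peaks within 1 kb merged, without 1 kb at either edge, without shared bases, with peaks at or above the median score (36 tested) and against IgG (35 tested). Leaving out a library in turn left 35 falls each time, and 7865 to 9594 over all genes. Those lost were Fars2 and Tarsl2 without either KO library and Vars2 without either WT library, and Fars2 was not tested without a WT library. Over all genes, 5881 of 5962 fell with the 25% filter and 4889 of 10806 after scaling to equal mean coverage, where 17 members fell. Changes turned positive there for Fars2 (11.8 points), Vars2 (10.3), Wars2 (11.5), Tarsl2 (4.93) and Ears2 (7.91); the cause was not tested.

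Mean coverage of cytosolic genes in KO was 2.19% against IgG, 1.46% with peaks at or above the median score, 3.45% with merged peaks and 14.4% after scaling, and in WT it was 62.1%, 65.8%, 79.6% and 40.3% in the same order of settings. For mitochondrial genes KO had 2.46% against IgG, 2.22% by score, 4.46% merged, 4.54% without the edges and 18.96% scaled, and WT had 40.03%, 43.4%, 59.6%, 56.7% and 28.6% in that order. Without a library in turn, the cytosolic means lay at 3.16% to 3.29% in KO and 69.1% to 74.0% in WT, and the mitochondrial means at 4.20% to 4.29% in KO and 50.4% to 51.2% in WT. The cytosolic minus mitochondrial difference in WT, 20.8 points, was 17.9 without the edges, 11.7 after scaling and 18.7 to 22.8 with a single WT library. Members covered over at least 50% in WT numbered 29, 19 against IgG, 30 with either WT library alone and 7 at 75%. The cytosolic gene was higher in 11 to 13 of 14 pairs with a single WT library.

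With the replicate number as a block, 37 of 37 members fell (highest limma adjusted p 0.0449) and 9990 genes in all. Deviations of libraries with the same number correlated at -0.0032 over 10806 genes. KO coverage was near the floor, and 2726 of these genes had identical values in the KO libraries. The correlation therefore cannot decide whether the numbers pair the libraries. With 2 libraries per genotype and no read counts, small differences between members were not detectable, and signal below the calling threshold cannot be bounded.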

Other observations

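The highest-scored KO peak of any member lay at the end of Lars2, at chr9:123461721-123462530 (GRCm38), 94.8 kb from the start of its span. Its deposited score was 492 in the first KO library, where it ranked 109 of 122589 peaks, and the second KO library had a peak over the same place with a score of 177 and rank 309 of 159459. The WT libraries had peaks there too, with scores of 236 and 196 at ranks 11124 and 13558. Among the other members, the highest KO score was 88.9 and 91.4 in the same lists. No list called against IgG held a peak there, in either genotype. Lars2 is thus a member whose gene body fell with the rest, while its end held a peak in all 4 Input lists; this place was chosen after its values were seen, and ranks in lists of different lengths show no change.

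WT coverage of the members differed by a median of 3.20 points between the WT libraries. The first was higher in 25 genes and the second in 12. Gaps over 10 points were found in 9 genes (Farsa, Mars1, Qars, Sars, Tars, Tarsl2, Vars, Hars2 and Vars2), and the widest was 15.6 points in Vars2.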
